A study of Mus musculus with 6 samples.

Results

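Microglia are the resident macrophages of the brain, and the present results describe 10 genes that mark microglia and related macrophages in cortex taken at E13.5 from mouse embryos that did or did not carry a conditional deletion of Ybx1. The 10 genes were taken by symbol from the deposited table: Csf1r, Cx3cr1, P2ry12, C1qa, C1qb, C1qc, Trem2, Tyrobp, Fcer1g and Aif1. All 10 were present among the 17348 genes of the table, and 8 of them passed the filter on low counts, which kept 13340 genes. The 2 genes below the filter were Trem2 and Aif1. RNA was sequenced from 3 WT and 3 cKO libraries, all on a C57BL/6J background. The cKO embryos carried Nestin-Cre and Ybx1 fl/fl, so that exons of Ybx1 were lost where the Nestin-Cre transgene is expressed, in neural progenitors and their descendants. The labels call the control group WT, whereas the columns of the table call it Ctrl, and elsewhere in the study the controls carried Ybx1 fl/fl without Cre. The comparison asks whether transcripts of cells outside the Cre lineage differed between the cortices, since Ybx1 itself was not deleted by design in microglia.

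Microglia and the macrophages of the meninges and perivascular spaces descend from yolk sac progenitors, which enter the embryonic brain while cortical neurogenesis is under way. They depend on the receptor Csf1r, whose ligands are Csf1 and Il34, and on the transcription factor Spi1 (PU.1). Cx3cr1 and P2ry12 are surface receptors for the neuronal chemokine Cx3cl1 and for extracellular nucleotides. C1qa, C1qb and C1qc encode the chains of C1q, which starts the classical complement pathway. Trem2 is a lipid receptor that signals through the adaptor Tyrobp (DAP12), Fcer1g is the related adaptor of Fc receptors, and Aif1 encodes Iba1, the protein usually stained to show microglia.

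The 3 C1q genes lay side by side on the minus strand of chromosome 4 in GRCm38 (GENCODE M21), within 18675 bases at chr4:136880129-136898803, with C1qb, C1qc and C1qa in ascending coordinates. P2ry12 lay on the minus strand at chr3:59216272-59262871, inside Med12l on the other strand. Exons of P2ry12, Cx3cr1 and Csf1r overlapped exons of Med12l, of the antisense gene Gm33858 and of Hmgxb3, respectively, each on the other strand. Because the strand setting of the counting is not given in the sources used here, reads in those overlaps cannot be told apart. The other 7 genes overlapped no annotated gene. The promoters of C1qb, C1qc and P2ry12 are shown because 2 of them belong to the gene cluster and all 3 hold the core of the sequence that PU.1 binds. Each is the 250 bases before the RefSeq start of the gene (GRCm38.p6, minus strand), at chr4:136886201-136886450, chr4:136892915-136893164 and chr3:59262986-59263235, written 5′ to 3′ with AGGAAG or its reverse complement CTTCCT in capitals.
C1qb: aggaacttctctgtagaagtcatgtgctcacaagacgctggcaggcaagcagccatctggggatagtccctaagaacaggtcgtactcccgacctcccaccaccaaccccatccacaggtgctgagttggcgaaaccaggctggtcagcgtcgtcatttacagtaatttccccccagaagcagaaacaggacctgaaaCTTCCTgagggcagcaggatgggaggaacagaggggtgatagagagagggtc
C1qc: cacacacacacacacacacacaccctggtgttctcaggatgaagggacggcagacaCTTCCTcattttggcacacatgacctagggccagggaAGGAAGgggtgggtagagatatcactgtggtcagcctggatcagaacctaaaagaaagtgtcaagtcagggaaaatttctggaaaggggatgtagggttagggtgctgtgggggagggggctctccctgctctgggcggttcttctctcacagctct
P2ry12: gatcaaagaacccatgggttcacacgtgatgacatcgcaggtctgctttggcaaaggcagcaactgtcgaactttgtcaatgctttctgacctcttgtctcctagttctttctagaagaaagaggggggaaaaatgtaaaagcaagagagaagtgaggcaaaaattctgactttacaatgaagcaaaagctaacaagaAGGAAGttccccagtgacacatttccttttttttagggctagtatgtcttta
Promoter windows were found for 7 of the 10 genes. The core was present, on either strand, in 5 of these 7 windows (C1qb, C1qc, Fcer1g, P2ry12 and Trem2) and in 29.5% of 32851 windows of the same length. The longer form GAGGAAGT (reverse complement ACTTCCTC), which contains the core, was present only in the window of C1qc among the 7 and in 2.44% of all windows. These matches describe the letters of the windows, and binding was not measured.

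Library totals were between 15907491 and 16282929 estimated counts, and levels are given as CPM, counts scaled by TMM-normalised library size. Libraries differed in ways that touch the results. Ybx1 was at 1021, 528 and 1220 CPM in WT 1 to 3 and at 83.1, 117 and 147 CPM in cKO 1 to 3 (log2 fold change -3.00, SE 0.33, edgeR adjusted p = 0.128), so WT 2 held the lowest WT level, still above every cKO library. The adjusted p of Ybx1 depended on the fit. It was 0.0208 in edgeR without WT 2 (log2 fold change -3.28), 0.0381 with the replicate number as a block, 0.0181 without both WT 2 and cKO 3, and 5.81e-10 in DESeq2, and it was above 0.05 in the other 12 alternatives. The library cKO 3 carried transcripts typical of epidermis and connective tissue, with 2153 counts of Krt5 against at most 1 in any other library and 2995 counts of Col3a1 against 52 to 72. The Y-linked gene Ddx3y was counted in WT 1, cKO 1 and cKO 3 (879, 1179 and 1204 counts) and had 0 counts in WT 2, WT 3 and cKO 2, so a level of up to 0.184 to 0.186 CPM could have been missed there. The 12 listed genes of cortical progenitors and neurons, led in TPM by Tubb3, Neurod6 and Lhx2, summed to between 4774 CPM (cKO 3) and 6024 CPM (WT 1), so markers of the labelled tissue were present in every library. The study describes the replicates as independent experiments, and 3 sequencing batches are mentioned without saying which libraries they held, so batch and genotype cannot be told apart.

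Transcripts of the 10 genes were rare in this tissue. Together they had between 388 and 597 counts in a library, and 2963 counts in all 6. Per transcript length, C1qb had the highest level at 8.95 ± 1.76 TPM (SD, n = 6 libraries), followed by C1qc at 8.17 ± 1.98 TPM, C1qa at 7.49 ± 1.3 TPM, Fcer1g at 7.41 ± 2.03 TPM and Tyrobp at 6.11 ± 2.42 TPM. Csf1r was at 5.14 ± 1.62 TPM, Cx3cr1 at 3.99 ± 1.02 TPM and P2ry12 at 3.18 ± 0.484 TPM. Trem2 at 1.64 ± 0.564 TPM and Aif1 at 1.3 ± 0.5 TPM were lowest. Only the step from P2ry12 to Trem2 was larger than the SD of both neighbours, with P2ry12 above Trem2 in 6 of 6 libraries. The 3 C1q genes did not differ from one another beyond their spread, with C1qb above C1qc in 4 of 6 libraries. The makeup of the summed counts was similar in all libraries, with Csf1r at 25.6% to 33.0% and the 3 C1q genes together at 26.8% to 33.7%.

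**Figure D1:**
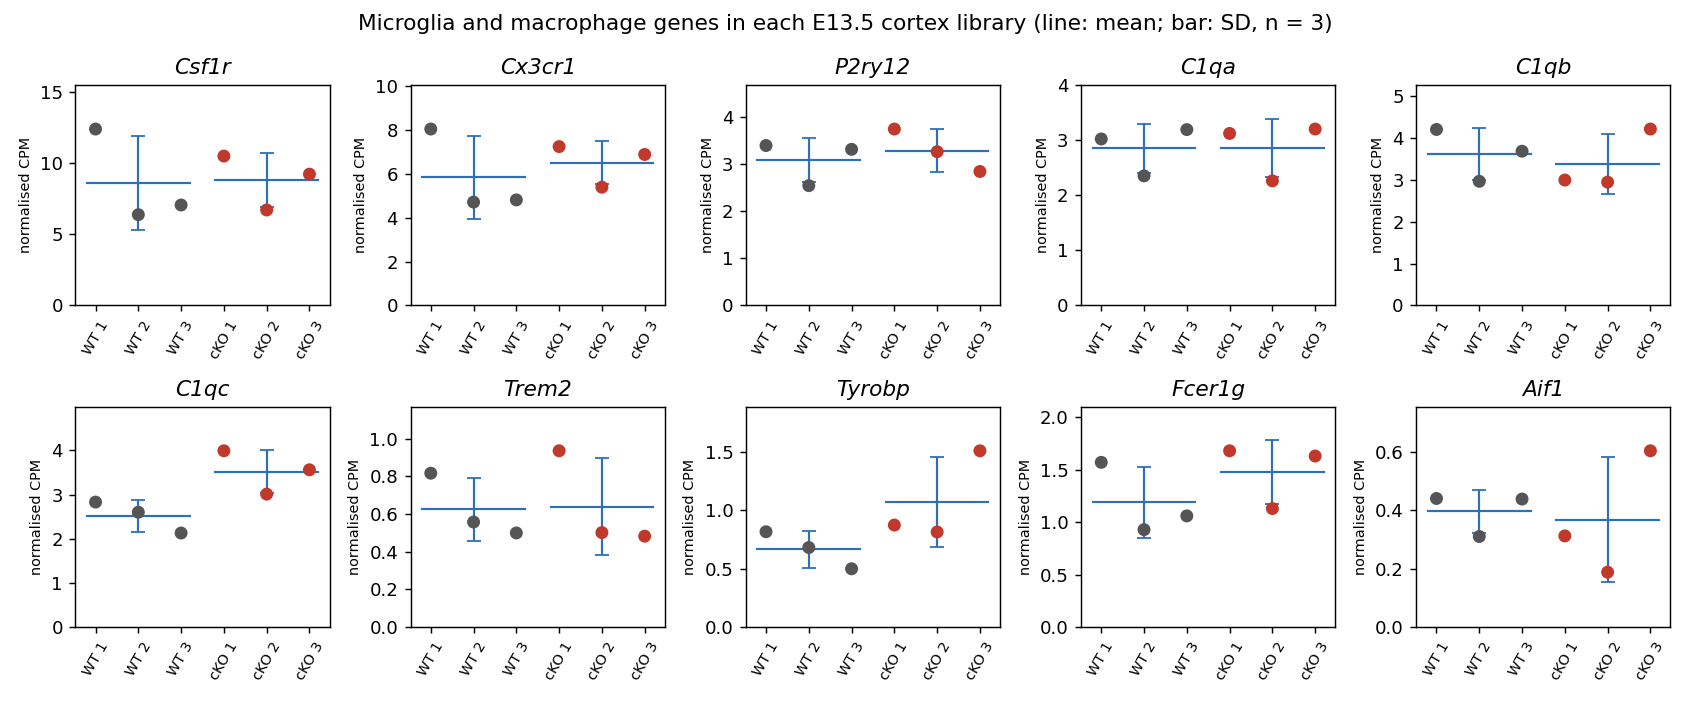
TMM-normalised CPM of each of the 10 genes in the 3 WT (grey) and 3 cKO (red) libraries, on a linear axis from 0, with 1 point per library, a line for the group mean and a bar for the SD (n = 3). The groups overlap for 9 genes, and for C1qc the cKO libraries (3.01 to 3.99 CPM) all lie above the WT libraries (2.13 to 2.83 CPM).

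Csf1r, the receptor on which microglia depend for survival, was the most counted of the 10 genes. It was at 12.4, 6.38 and 7.06 CPM in WT 1 to 3 and at 10.5, 6.71 and 9.23 CPM in cKO 1 to 3. WT 1 was highest and WT 2 lowest, so the cKO libraries lay inside the WT range. The group means were 8.61 ± 3.28 CPM in WT and 8.81 ± 1.92 CPM in cKO (SD, n = 3 each), with a log2 fold change of 0.03 (95% interval -0.60 to 0.67). Counting alone would give a coefficient of variation of about 8.45% for Csf1r, against an observed 38.1% within WT and 21.8% within cKO. The spread of Csf1r between libraries was thus larger than its counting error.

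Cx3cr1, the receptor for the neuronal chemokine Cx3cl1, was at 8.04, 4.71 and 4.81 CPM in WT 1 to 3 and at 7.24, 5.39 and 6.88 CPM in cKO 1 to 3. All 3 cKO libraries fell between the lowest and the highest WT library, and the log2 fold change was 0.15 (95% interval -0.40 to 0.71). P2ry12, the nucleotide receptor that microglia express and most other macrophages lack, was at 3.39, 2.54 and 3.31 CPM in WT 1 to 3 and at 3.74, 3.26 and 2.84 CPM in cKO 1 to 3. The 2 groups overlapped, and the log2 fold change was 0.09 (95% interval -0.40 to 0.57). The spread of P2ry12 within each genotype, 15.3% in WT and 13.9% in cKO, was close to the 14% that counting alone would give.

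The 3 chains of C1q did not differ in the same direction. C1qa was at 3.02, 2.35 and 3.19 CPM in WT 1 to 3 and at 3.12, 2.26 and 3.20 CPM in cKO 1 to 3. Its groups almost coincided, at 2.85 ± 0.44 CPM in WT and 2.86 ± 0.521 CPM in cKO (SD, n = 3 each), with a log2 fold change of 0.0039 (95% interval -0.52 to 0.53). C1qb was at 4.21, 2.97 and 3.69 CPM in WT 1 to 3 and at 3.00, 2.95 and 4.22 CPM in cKO 1 to 3. It was the only tested gene of the 8 with a negative log2 fold change, of -0.10 (95% interval -0.62 to 0.43), and its groups overlapped.

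C1qc was at 2.83, 2.60 and 2.13 CPM in WT 1 to 3 and at 3.99, 3.01 and 3.56 CPM in cKO 1 to 3. It was the only one of the 10 genes with every cKO library above every WT library, at 2.52 ± 0.358 CPM in WT and 3.52 ± 0.492 CPM in cKO (SD, n = 3 each). Such separation upward was seen in 4.21% of the 13340 tested genes. The log2 fold change was 0.48 (SE 0.21, 95% interval -0.0046 to 0.97), and edgeR's quasi-likelihood test gave an adjusted p of 0.99995, with C1qc at place 497 of all tested genes. The promoter sequence of C1qc given earlier was the only 1 of the 7 with the longer PU.1 form. No window was found for C1qa, and a link of this sequence to the level of C1qc was not tested. Relative to its cluster neighbours, C1qc had 0.391, 0.488 and 0.309 counts per count of C1qa and C1qb together in WT 1 to 3, and 0.653, 0.578 and 0.480 in cKO 1 to 3. These ratios overlapped between the genotypes through WT 2 and cKO 3.

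The adaptors and Trem2 were counted in few reads. Tyrobp, the adaptor of Trem2, had 13, 11 and 8 counts in WT 1 to 3 and 14, 13 and 25 counts in cKO 1 to 3. The highest value belonged to cKO 3, whose 25 counts have an exact Poisson 95% interval of 16.2 to 36.9, which covers counting error only. The log2 fold change of Tyrobp was 0.68 (SE 0.37, 95% interval -0.18 to 1.53), the largest among the 8 genes, and it was 0.34 (SE 0.36) without cKO 3. Fcer1g, the Fc receptor adaptor, was at 1.57, 0.929 and 1.06 CPM in WT 1 to 3 and at 1.68, 1.13 and 1.63 CPM in cKO 1 to 3. Its groups overlapped, with a log2 fold change of 0.32 (95% interval -0.39 to 1.03).

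Trem2 had 13, 9 and 8 counts in WT 1 to 3 and 15, 8 and 8 counts in cKO 1 to 3. Aif1, the transcript of the Iba1 protein, had 7, 5 and 7 counts in WT 1 to 3 and 5, 3 and 10 counts in cKO 1 to 3. Both genes were detected in all 6 libraries with overlapping groups, and neither was tested because of the filter. Counting alone would give a coefficient of variation of about 31.4% for Trem2 and 40.3% for Aif1, so only large differences could have been seen at this depth. The log2 ratio of the mean cKO to the mean WT level was 0.04 for Trem2 and -0.11 for Aif1.

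None of the 8 tested genes passed an adjusted p of 0.05 in edgeR's quasi-likelihood test, as was the case for every gene of the table (0% of 13340 called, lowest adjusted p of any gene 0.0953). At an unadjusted p under 0.05, 0 of the 8 were called, against 1.75% of all genes in the higher and 1.81% in the lower direction. DESeq2 called 0 of the 10 genes at an adjusted p under 0.05, against 0.029% of all genes. The log2 fold change was positive for 7 of the 8 genes and for 50.8% of all genes, with a median of 0.12 against 0.0019 over all genes. The 95% intervals, not adjusted over genes, reached from 0.485 to 0.855 to either side of the estimates. Smaller estimates in a single gene could therefore not be told from 0. These widths are no detection limit, since at the adjusted threshold edgeR did not call Ybx1 (log2 fold change -3.00, adjusted p = 0.128). In bulk tissue, fewer cells of a type and less RNA per cell cannot be told apart.

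**Figure D2:**
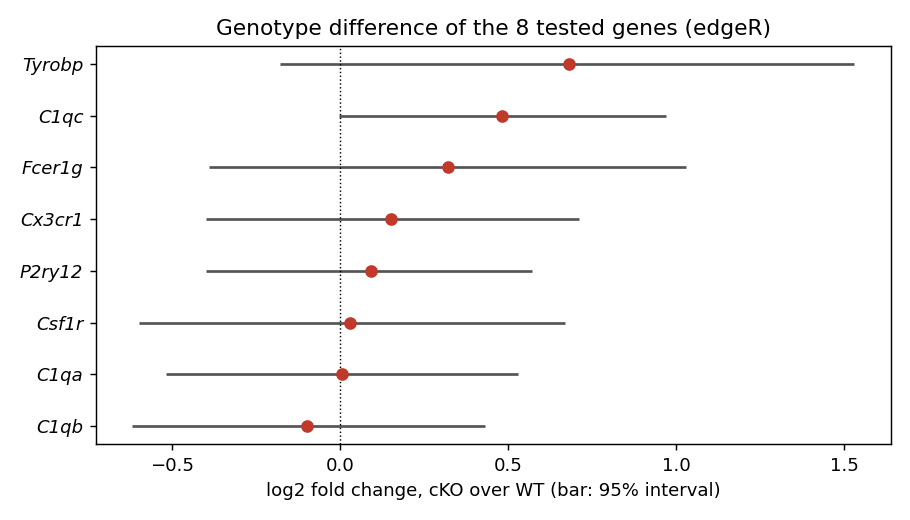
Log2 fold change of cKO over WT for the 8 tested genes from edgeR's quasi-likelihood fit, with 95% intervals as bars and a dotted line at 0. All 8 intervals include 0, with C1qc reaching from -0.0046 to 0.97 and Tyrobp from -0.18 to 1.53.

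The summed level of the 10 genes varied among libraries of the same genotype. It was 37.5, 24.0 and 26.7 CPM in WT 1 to 3 and 35.4, 26.2 and 34.1 CPM in cKO 1 to 3. The mean was 29.4 ± 7.13 CPM in WT and 31.9 ± 4.97 CPM in cKO (SD, n = 3 each), a log2 ratio of 0.12, which was smaller than the SD of 0.29 within genotypes on the same scale. WT 1 was above WT 2 for 10 of 10 genes, cKO 1 was above cKO 2 for 10 of 10, and cKO 3 was above cKO 2 for 8 of 10. Not every gene spread beyond counting error. Within WT the coefficient of variation was 38.1% for Csf1r and 32.4% for Cx3cr1, against 8.45% and 10% from counting. For C1qc it was 14.2% in WT and 14% in cKO, against 14.3% from counting, and P2ry12 was likewise close to counting error. The 3 libraries with the highest sums, WT 1, cKO 1 and cKO 3, were the 3 in which Ddx3y was counted. Csf1r, Cx3cr1, Tyrobp and Fcer1g each had all 3 of these libraries above the other 3 in CPM, an arrangement found in 6.08% of all tested genes. For Tyrobp it rested on scaling alone, since WT 1 and cKO 2 both had 13 counts (0.817 and 0.815 CPM). With the presence of Ddx3y as a second term, added after these values were seen, the log2 fold change of Csf1r was -0.17 and that of C1qc was 0.38, and the median over the 8 genes was 0.02. The part of sex in this spread was not tested.

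**Figure D3:**
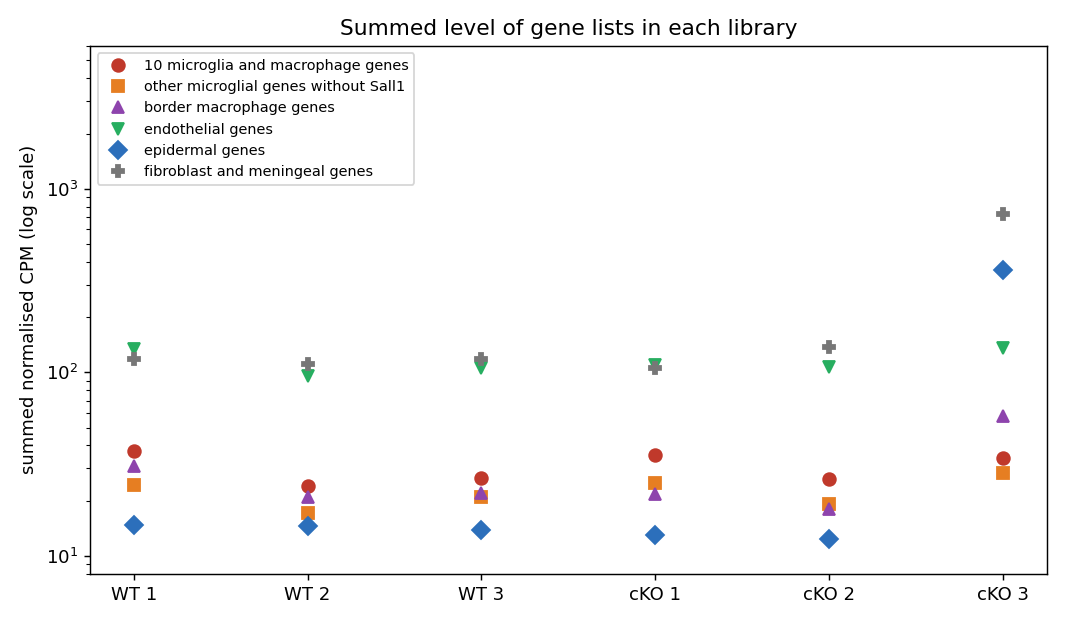
Summed CPM (log axis) of the 10 microglia and macrophage genes and of 5 other gene lists in each of the 6 libraries, with 1 marker per list. All 5 other lists stand highest in cKO 3, with border macrophage genes at 58.0 CPM against 17.9 to 30.8 CPM elsewhere. The step is small for the other microglial genes (28.2 CPM against 17.2 to 25 CPM) and endothelium (136 CPM against 95.8 to 134 CPM). The 10 microglia and macrophage genes lie between 24.0 and 37.5 CPM and are highest in WT 1.

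The genes whose pattern over the 6 libraries was most like that of the 10 included other microglial genes. Pearson's r with the mean standardised log2 CPM of the 10 was 0.990 for Fcrls, a microglial Fc receptor-like gene. Next came Man2b1 (0.989), a lysosomal mannosidase, Mst1r (0.988), Uty (0.986), which is Y-linked, Ifi30 (0.984), a lysosomal thiol reductase of antigen-presenting cells, B3gnt7 (0.984), Hpca (0.982), a neuronal calcium sensor, and Cd68 (0.979), a lysosomal protein of macrophages. Among 13332 other genes, 129 had an r over 0.9, and the 6 points share their library preparations and the Ddx3y pattern. Fcrls followed the pattern with 76, 37 and 52 counts in WT 1 to 3 and 77, 42 and 82 counts in cKO 1 to 3.

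Other homeostatic microglia genes gave the same picture. Of 9 tested genes in that list, 7 had a positive and 2 a negative log2 fold change with a median of 0.26, and 0 were called at an unadjusted p under 0.05. Olfml3 had 83, 53 and 62 counts in WT and 88, 47 and 99 counts in cKO, with overlapping groups. Tmem119, named after its values were seen, had 20, 13 and 12 counts in WT 1 to 3 and 12, 9 and 44 counts in cKO 1 to 3, and its log2 fold change of 0.50 (SE 0.59) became -0.51 (SE 0.39) without cKO 3. Sall1, a transcription factor of microglia that neural progenitors also express, was at 285 ± 29.9 CPM in WT and 282 ± 62 CPM in cKO (SD, n = 3 each). Without Sall1, the list summed to 24.2, 17.2 and 20.9 CPM in WT 1 to 3 and 25, 19.1 and 28.2 CPM in cKO 1 to 3.

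Of 15 markers of the macrophages at the borders of the brain, 10 were highest in cKO 3. These include Cbr2 and Clec10a, with 5 and 1 counts in all 6 libraries together. The share of all genes highest in cKO 3 was not computed. It was 4 of 10 for the microglia and macrophage genes, of which P2ry12 was lowest there among the cKO libraries. In other lists it was 7 of 12 for homeostatic microglia, 8 of 22 for leukocytes and 10 of 17 for the activated state. For endothelium it was 7 of 12 and for cortex 0 of 12. A peak in cKO 3 was thus not particular to border markers, and cKO 3 had the most genes detected (16309). Mrc1, the mannose receptor of border macrophages, had 42, 16 and 14 counts in WT 1 to 3 and 22, 16 and 116 counts in cKO 1 to 3. F13a1, a transglutaminase, had 33, 29 and 15 counts in WT and 19, 7 and 84 counts in cKO. Per count of P2ry12, Mrc1 had 2.47 counts in cKO 3 and between 0.264 and 0.778 in the other 5 libraries. All 4 tested genes of the list (Mrc1, F13a1, Dab2 and Stab1) had positive log2 fold changes, of which Mrc1 was at 1.06 (SE 0.77), and 0 were called. Without cKO 3 the log2 fold change was -0.33 for Mrc1, -0.97 for F13a1, -0.19 for Dab2 and -0.21 for Stab1. Pf4 had 6, 9 and 11 counts in WT 1 to 3 and 4, 5 and 15 counts in cKO 1 to 3. Against this pattern, Folr2 was highest in WT 1 (8, 5 and 2 counts in WT 1 to 3 and 1, 2 and 7 in cKO 1 to 3), Ms4a7 had 3 counts in each WT library and 1 or 2 in the cKO libraries, and Clec4n and Ccl24 had at most 2 counts and were 0 in cKO 3. Cd163, another marker of border macrophages, had at most 1 count in any library, and Lyve1 had 6 or 7 counts in WT 1 to 3 against 3, 2 and 25 counts in cKO 1 to 3. Mrc1, F13a1, Cbr2, Clec10a, Cd163, Lyve1, Folr2, Ms4a7, Clec4n and Ccl24 were chosen after their values were seen.

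**Figure D4:**
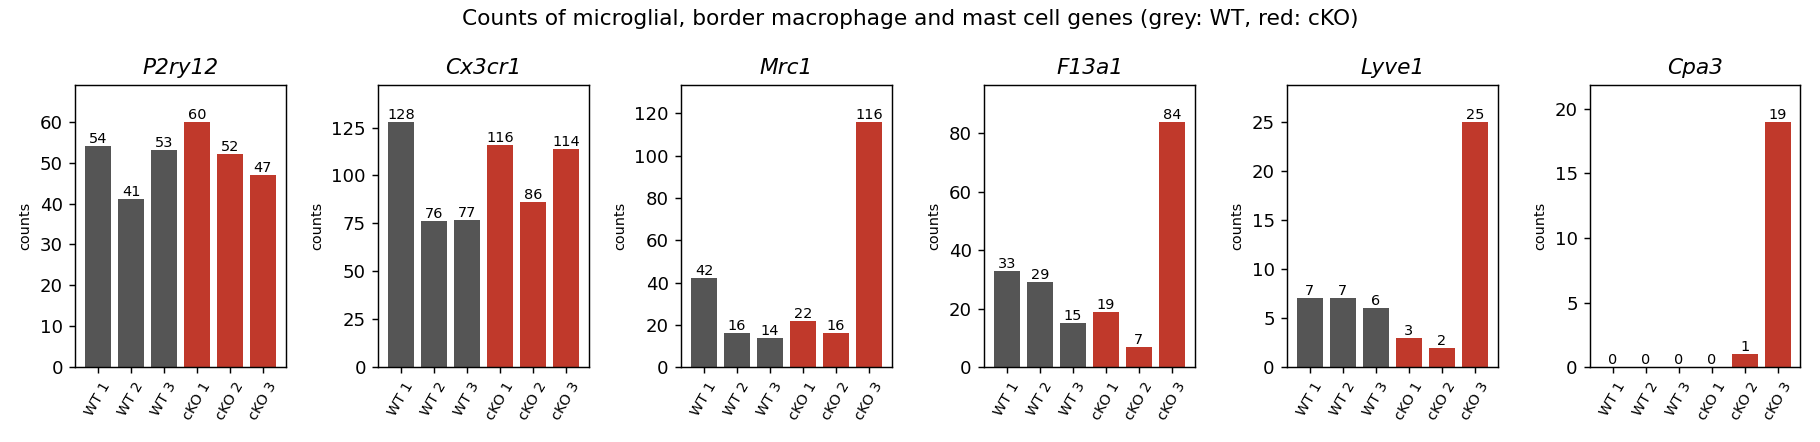
Estimated counts of P2ry12 and Cx3cr1 (microglia), Mrc1, F13a1 and Lyve1 (border macrophages) and Cpa3 (mast cells) in each of the 6 libraries, as bars from 0 (grey WT, red cKO) with the count above each bar. P2ry12 stays between 41 and 60 counts, whereas Mrc1 and F13a1 reach 116 and 84 counts in cKO 3 and lie at or below 42 counts in the other libraries.

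Of 15 tested general leukocyte genes, 13 had a positive log2 fold change with a median of 0.18, and Arhgdib, a signalling gene of leukocytes, was the only 1 past an unadjusted p of 0.05. It had 26, 43 and 30 counts in WT 1 to 3 and 47, 40 and 237 counts in cKO 1 to 3. Its log2 fold change of 1.68 (SE 0.67, edgeR adjusted p = 0.99995) fell to 0.40 (SE 0.27) without cKO 3. The 3 genes of that list with the highest TPM were Coro1a, Cyba and Lcp1, with log2 fold changes of -0.14, 0.10 and 0.0037. Their mean levels of 32.3, 14.6 and 11.7 TPM were above all 10 microglia and macrophage genes, so their source cells cannot be told.

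Transcription factors of the lineage did not differ in 1 direction. Of 9 tested, 5 had a positive and 4 a negative log2 fold change. Maf and Mef2c, which were among the highest in TPM of the list and are also expressed in neurons, were at 0.17 and -0.15. Spi1, the gene of PU.1, had 12, 8 and 9 counts in WT 1 to 3 and 15, 14 and 17 counts in cKO 1 to 3, with every cKO library above every WT library (log2 fold change 0.64, SE 0.31, edgeR adjusted p = 0.99995). Irf8, a partner of PU.1 in microglial development, had 23, 25 and 18 counts in WT 1 to 3 and 17, 15 and 13 counts in cKO 1 to 3, with every cKO library below (log2 fold change -0.56, SE 0.27, edgeR adjusted p = 0.99995). Neither passed the test, and both were named after their values were seen. Without cKO 3 the log2 fold change was 0.58 for Spi1 and -0.45 for Irf8. Separation upward and downward was seen in 4.21% and 4.83% of all tested genes.

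In the signalling list of Tyrobp and Fcer1g, 7 of 10 tested genes had positive log2 fold changes, with a median of 0.14. Lyn, a Src family kinase, was at 0.35 (SE 0.18), and 0.22 without cKO 3. Sirpa, which recognises Cd47, was at -0.04, and Lat2 was at 0.17. Among complement genes beyond C1q, 4 of 9 were positive and 5 negative, with C1qbp at 0.13, Masp1 at -0.11 and Serping1, the C1 inhibitor, at -0.05. Genes listed for the activated state had 7 of 8 positive values with a median of 0.11, led in TPM by the lysosomal genes Ctsb (0.09), Ctsd (0.02) and Cd63 (0.23). Their mean levels were 151, 103 and 91.5 TPM, and that of Sirpa was 23.9 TPM. Each was above all 10 microglia and macrophage genes, so the cells that gave these reads cannot be told in bulk tissue. In the signalling, complement and activation lists 0 genes were called at an unadjusted p under 0.05. Over the 6 lists of homeostatic, border, leukocyte, transcription factor, signalling and activation genes together, 55 genes were tested and 1 was called at an unadjusted p under 0.05, a share of 1.82% against 3.57% of all genes.

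The ligand list of 8 genes holds Csf1, Il34 and Cx3cl1, the ligands of Csf1r and Cx3cr1, and other signals to macrophages. Which cells made these transcripts was not measured. Csf1, the ligand of Csf1r, had 135, 132 and 141 counts in WT 1 to 3 and 158, 180 and 183 counts in cKO 1 to 3. Every cKO library was above every WT library, at 8.49 ± 0.317 CPM in WT and 10.7 ± 0.765 CPM in cKO (SD, n = 3 each). Such separation upward was seen in 4.21% of all tested genes. The log2 fold change was 0.34 (SE 0.11, 95% interval 0.08 to 0.60), past an unadjusted edgeR p of 0.05 but with an adjusted p of 0.99995. At that unadjusted threshold 1.75% of all genes were called higher. In 16 alternative fits the log2 fold change of Csf1 lay between 0.29 and 0.40, with 12 past the unadjusted threshold and a lowest adjusted p of 0.569. These fits reuse the same libraries and are not independent of one another. Il34, the other ligand, had 2, 1 and 1 counts in WT 1 to 3 and 1, 1 and 7 counts in cKO 1 to 3. Of the 7 tested genes of the whole list, 2 had positive and 5 negative log2 fold changes. Cx3cl1 was at -0.03 (SE 0.18), and Cd200 and Cd47, which restrain macrophages, were at -0.12 and -0.13. Cxcl12 was at 0.33 (SE 0.17).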

How the data were processed

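Estimated counts, TPM and FPKM per gene were deposited by the authors in 1 table of 6 libraries, without depth scaling of the estimated counts. The TPM deposited by the authors were used to compare levels between genes, and the deposited FPKM and 6 columns of group averages were not used. Total RNA of E13.5 cortex was extracted with Trizol, and mRNA libraries were sequenced on a DNBSEQ platform. The submitters' processing notes name HISAT2 2.2.1, Bowtie2 2.4.5, RSEM 1.3.1 and GRCm38/mm10. The annotation and strand setting are not given in the sources used here.

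Of the values, 10.9% were not whole and were rounded. Genes were kept by filterByExpr (minimum count 10, minimum total 15). The main test was edgeR's quasi-likelihood test (edgeR 4.0.16, R 4.3.3) with TMM factors (0.987 to 1.03) and genotype as the only term, adjusted after Benjamini and Hochberg over all tested genes. The script was tested on simulated data. A two-sided exact permutation test of 3 against 3 libraries cannot go below 0.1. The p-values measure the spread between these libraries. Alternatives were scaling by RLE or by the upper quartile, omission of the filter, a stricter filter of 10 counts in each library, limma-voom and limma on log2(TPM + 1) (limma 3.58.1), DESeq2 1.42.0, the replicate number as a block, each library left out, both WT 2 and cKO 3 left out, and a Y-linked term added later. The members, the gene lists and their tests were chosen with earlier results of these data known. Named were the 10 genes, Ybx1, the 8 genes most like them and, from each list, genes with an unadjusted p under 0.05 and the 3 with the highest TPM. Genes outside this rule, such as Krt5, were picked with their values known. Some of the genes under this rule enter the counts and are not reported singly here.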

Additional observations from a re-analysis of the deposited data

How the results depend on the processing

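No alternative fit gave an adjusted p under 0.05 for any of the 10 genes, the lowest being 0.624 for C1qc with the replicate block. C1qc kept a positive log2 fold change in all 16 alternatives (0.37 to 0.58). It passed an unadjusted p of 0.05, as the only 1 of the genes, with at least 10 counts in every library, limma-voom, limma on log2(TPM + 1) (1 each) and without cKO 2 (0 to 1 gene when each library was left out). The median of the tested genes was -0.007 without WT 2 and 0.42 without WT 1, and the log2 ratio of the summed level was -0.008 and 0.33.

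The sign of the smallest differences changed with the processing. C1qa was at -0.0021 with no filter, -0.0003 with the block, -0.00024 on TPM, -0.20 without both WT 2 and cKO 3, -0.11 with the Y-linked term, and -0.12 to 0.15 with 1 library left out. Csf1r was at -0.18 without both, -0.17 with the Y-linked term and -0.14 to 0.39 with 1 library left out. Cx3cr1 was at -0.02 without both, -0.01 with the Y-linked term and 0.02 to 0.45 with 1 library left out. C1qb was at -0.41 without both and ranged from -0.29 to 0.03 and P2ry12 from -0.03 to 0.18 with 1 library left out. The cause was not tested.

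Over all genes, calls at an adjusted p of 0.05 were 1 higher and 1 lower with the replicate block and without both libraries, 2 and 3 in DESeq2, and 0 to 1 each with 1 library left out. At an unadjusted p under 0.05 they went from 234 higher and 242 lower to 476 and 614 with the block, 365 and 369 with the Y-linked term, 107 and 136 without both, 390 higher with no filter, and 120 to 557 higher and 117 to 481 lower with 1 library left out. The share of higher calls was 49.2%, 60% with no filter and 59.5% on TPM. Calls in the 6 macrophage lists were 3 with the block, 0 in limma-voom, 0 without both and 0 to 3 with 1 library left out. Deviations of log2 CPM from the genotype mean correlated at 0.41, 0.31 and -0.02 over all genes between same-numbered libraries. Pairs with different numbers lay between -0.43 and 0.26. Whether the numbers mark a pairing was not tested. The Y-linked term was chosen after seeing the data. Depth limits Aif1 and Trem2 most.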

Other observations

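Other cell types with their own blood or vessel origin were also compared. All 12 endothelial genes were tested, 9 with a positive and 3 with a negative log2 fold change and a median of 0.10, and 0 passed an unadjusted p of 0.05. Pecam1, Cldn5 and Kdr, the receptor for vascular endothelial growth factor, were at 0.14, 0.07 and -0.00048. Their summed level was 134, 95.8 and 106 CPM in WT 1 to 3 and 109, 107 and 136 CPM in cKO 1 to 3, with overlapping groups. The erythroid genes summed to 698, 620 and 510 CPM in WT 1 to 3 and 886, 682 and 548 CPM in cKO 1 to 3, and 8 of 8 tested had positive values with a median of 0.16 and 0 calls. The globin genes Hba-a1, Hbb-y and Hbb-bs were at 0.16, 0.23 and 0.27. Their order over the libraries differed from that of the microglia and macrophage genes, with cKO 3 the lowest of the cKO libraries.

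Of the 7 mast cell genes in the table, 6 were highest in cKO 3, although their levels elsewhere differed. The share of all genes highest in that library was not computed. Cpa3, a protease of mast cell granules, had 0 counts in WT 1 to 3 and 0, 1 and 19 counts in cKO 1 to 3, and Cma1, the mast cell chymase, had 0 counts in WT 1 to 3 and 1, 0 and 8 counts in cKO 1 to 3. Hpgds, a prostaglandin synthase of mast cells and macrophages, had 18, 13 and 18 counts in WT and 13, 23 and 54 counts in cKO. Kit, which neurons also express, was at a log2 fold change of -0.07, and Gata2 had 2 to 12 counts in any library. Hdc, the histamine-forming enzyme, had 4, 1 and 4 counts in WT 1 to 3 and 6, 5 and 9 counts in cKO 1 to 3, so every cKO library was above every WT library. Such separation upward was seen in 4.21% of the genes that passed the filter, which Hdc did not. Fibroblast genes summed to 727 CPM in cKO 3 against 106 to 138 CPM elsewhere, and epidermal genes to 359 CPM against 12.3 to 14.8 CPM. Col1a1, Col1a2, Col3a1, Pdgfra and Postn of the fibroblast list and Perp and Sfn of the epidermal list passed an unadjusted p of 0.05, and 0 of these 7 did so without cKO 3. Of the lymphoid genes, 0 passed the filter, and of the monocyte and neutrophil genes only Prtn3 did. Cpa3, Cma1 and Hdc are named after their values were seen, and the part of these other cells in the border macrophage values of cKO 3 was not tested.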
